A study of Mus musculus with 28 samples.

Results

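De novo lipogenesis, the making of fatty acids from carbohydrate, was followed here through 10 of its genes in mouse liver. The genes were chosen by symbol, as textbook members of the pathway, and each of the 10 matched 1 row of the 49585 features in the count table. All 10 were among the 21583 genes counted as expressed, that is with a mean of at least 0.5 counts after scaling. The libraries came from 4 groups of 7 C57BL/6JOlaHsd mice, namely wild-type males and females (WT) and males and females with an added Sirt6 transgene (SIRT6-tg). The labels give an age of 5 to 7 months and a standard chow diet for every group, and the study's methods a short fast before the livers were taken. SIRT6 is a NAD-dependent protein deacylase of the nucleus. The SIRT6-tg mice carry a transgene that overexpresses it in the whole body and all come from 1 transgenic line, so effects of the transgene and of its insertion site cannot be told apart.

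Cytosolic acetyl-CoA is the carbon source of the pathway. Acly, ATP citrate lyase, makes it from citrate, and Acaca and Acacb, the acetyl-CoA carboxylases, turn it into malonyl-CoA, which for Acaca feeds synthesis and for Acacb, at the mitochondrion, restrains fatty acid oxidation. Fasn, fatty acid synthase, builds palmitate, Elovl6 elongates it, and Scd1 introduces the double bond that makes oleate. Me1, malic enzyme, supplies NADPH. Srebf1 encodes SREBP-1, which is activated with insulin, and Mlxipl encodes ChREBP, which responds to sugar. Both are transcription factors that raise the enzymes of the pathway after a meal. Pnpla3 is a target of both factors and encodes a lipid droplet protein.

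Sirt6 itself served as the check of the labels. It averaged 2.73 ± 0.511 CPM (reads scaled to the size of each library by TMM, mean ± SD, n = 7) in male WT livers and 280.9 ± 55.2 in male SIRT6-tg livers, and 2.88 ± 1.55 and 30.2 ± 12.5 in the females. The SIRT6-tg effect on Sirt6 was 9.79-fold larger in males than in females (edgeR quasi-likelihood test, adjusted p = 6.96e-06), so sex and the level of Sirt6 cannot be told apart where the sexes are compared. Between 18758863 and 35393069 reads were counted per library. Summed over the markers of other cells, T cell markers lay between 4.89 and 7.06 CPM in male SIRT6-tg livers and between 13.8 and 42.4 CPM in male WT livers, and 7 of 7 were lower. Macrophage and dendritic cell markers summed to 323.3 to 574.6 CPM against 664.0 to 2148.8 CPM, with 8 of 8 lower, stellate cell markers to 185.8 to 291.2 CPM against 282.3 to 528.6 CPM, with 5 of 5 lower, and 3 of 4 B cell markers were lower. The 8 hepatocyte markers were all detected, summed to 119142.9 to 164205.2 CPM against 95528.8 to 133818.2 CPM, and 3 of them were higher. Among 3 erythroid markers 1 was higher, 1 of 5 exocrine pancreas markers and 1 of 6 adipocyte markers were lower, and no sinusoidal endothelium or cholangiocyte marker passed the test. In the females none of these markers passed it. In bulk RNA, fewer cells of a type and less RNA per cell cannot be told apart. Adipocyte markers, whose cells also express lipogenic genes, were near 0 in all but 1 library, male WT replicate 3, which held 787 counts of them, 86 of Adipoq, against 0 to 68 in the others. The SIRT6-tg effect in males is therefore also given without it.

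The stretch before the transcription start is shown for the 3 genes that passed the test in males and for Fasn, to place the elements through which the pathway's factors are known to act. In Gencode coordinates of GRCm38, Srebf1 spans chr11:60199089-60222581, Mlxipl chr5:135089890-135138382, Me1 chr9:86581371-86695953 and Fasn chr11:120805846-120824547. RefSeq windows (GRCm38.p6) were found for 9 of the 10 genes, 13 windows in all, and only the 250 bases before each start were used. Capitals mark every match, on either strand, to CACGTG (E box), CATGTG (a variant E box), CCAAT (the NF-Y box), GGGCGG (the Sp1 box), TCACCC (core of a sterol element) and AGGTCA (a single nuclear receptor site). The sequences run 5′ to 3′ on the strand of the gene and end at the base before the start.
Srebf1, chr11:60210472-60210721, minus strand: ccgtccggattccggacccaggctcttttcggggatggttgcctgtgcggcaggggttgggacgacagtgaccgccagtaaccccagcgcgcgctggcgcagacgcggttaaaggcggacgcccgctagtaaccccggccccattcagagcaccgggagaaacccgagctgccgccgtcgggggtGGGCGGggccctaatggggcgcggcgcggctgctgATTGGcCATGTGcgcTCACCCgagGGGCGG
Mlxipl, chr5:135089640-135089889, plus strand: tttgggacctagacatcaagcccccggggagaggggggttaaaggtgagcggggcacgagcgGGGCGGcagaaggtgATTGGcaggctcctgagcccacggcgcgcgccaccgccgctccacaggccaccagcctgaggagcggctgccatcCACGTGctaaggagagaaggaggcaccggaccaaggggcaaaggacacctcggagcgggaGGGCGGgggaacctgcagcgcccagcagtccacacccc
Me1, chr9:86695915-86696164, minus strand: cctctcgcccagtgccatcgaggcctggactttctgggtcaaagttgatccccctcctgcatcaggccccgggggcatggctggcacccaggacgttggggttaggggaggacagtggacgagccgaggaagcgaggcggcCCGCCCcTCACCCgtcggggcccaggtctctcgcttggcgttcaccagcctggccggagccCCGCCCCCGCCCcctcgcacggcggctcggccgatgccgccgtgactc
Fasn, chr11:120824548-120824797, minus strand: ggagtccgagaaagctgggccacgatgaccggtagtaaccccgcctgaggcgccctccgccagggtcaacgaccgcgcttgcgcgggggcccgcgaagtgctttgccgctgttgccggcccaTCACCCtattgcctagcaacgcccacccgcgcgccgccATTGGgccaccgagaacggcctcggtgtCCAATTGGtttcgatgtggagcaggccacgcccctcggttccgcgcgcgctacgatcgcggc

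The Srebf1 window carries a CCAAT box (as ATTGG) 30 to 26 bases before the start, followed by CATGTG at 24 to 19 and TCACCC at 15 to 10. It is 1 of 3 RefSeq starts of the gene, whose alternative first exons give SREBP-1a and SREBP-1c, and the counts per gene do not separate these. The Mlxipl window holds CACGTG at 98 to 93 bases before the start, a sequence present in 6.02% of 32851 windows of the same length. It was the only member with this sequence. In the Fasn window, 2 CCAAT boxes on opposite strands share 2 bases, between 62 and 55 bases before the start. CCAAT was found in 6 of the 9 member genes and in 33.8% of all windows, GGGCGG in 5 genes and 32.7%, TCACCC in 4 genes (Me1, Srebf1, Fasn and Pnpla3) and 13.8%, and CATGTG in 3 genes (Acacb, Me1 and Srebf1) and 12.3%. AGGTCA was found before Elovl6 and Acly and in 14.0% of windows. Of the 13 member windows, 7 held CCAAT, 6 GGGCGG, 4 TCACCC, 3 CATGTG, 2 AGGTCA and 1 CACGTG. Me1 and Mlxipl each have another window that is not printed. The CATGTG and CCAAT of Me1 lie in that other window (chr9:86687278-86687527), and the other window of Mlxipl holds no match. The genes with several windows had more chances of a match than genes with 1, and a match of letters is no evidence of binding.

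Levels between genes were compared per exon length, in RPKM (CPM per kilobase of exon). Scd1 was the highest of the 10 in each group, with means from 1277.8 RPKM in female SIRT6-tg livers to 1956.2 RPKM in male SIRT6-tg livers. Acly came next with 53.6 to 76.8 RPKM and overlapped the next gene in each group. Fasn, Srebf1, Me1 and Mlxipl followed with means of 28.1 to 53.6 RPKM, and their ranges overlapped in every group, so that their order is not fixed by these data. Below them stood Elovl6 (19.4 to 23.8 RPKM), Acacb (8.91 to 12.6 RPKM), Acaca (2.2 to 3.0 RPKM) and Pnpla3 (0.689 to 1.61 RPKM). The ranges of Scd1 and Acly did not overlap in any group, nor did those of Acacb and Acaca, whereas Acaca and Pnpla3 overlapped in the females. Pnpla3 rested on 15 to 110 reads per library, against 543 or more for each other member, and its values are the least precise.

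**Figure D1:**
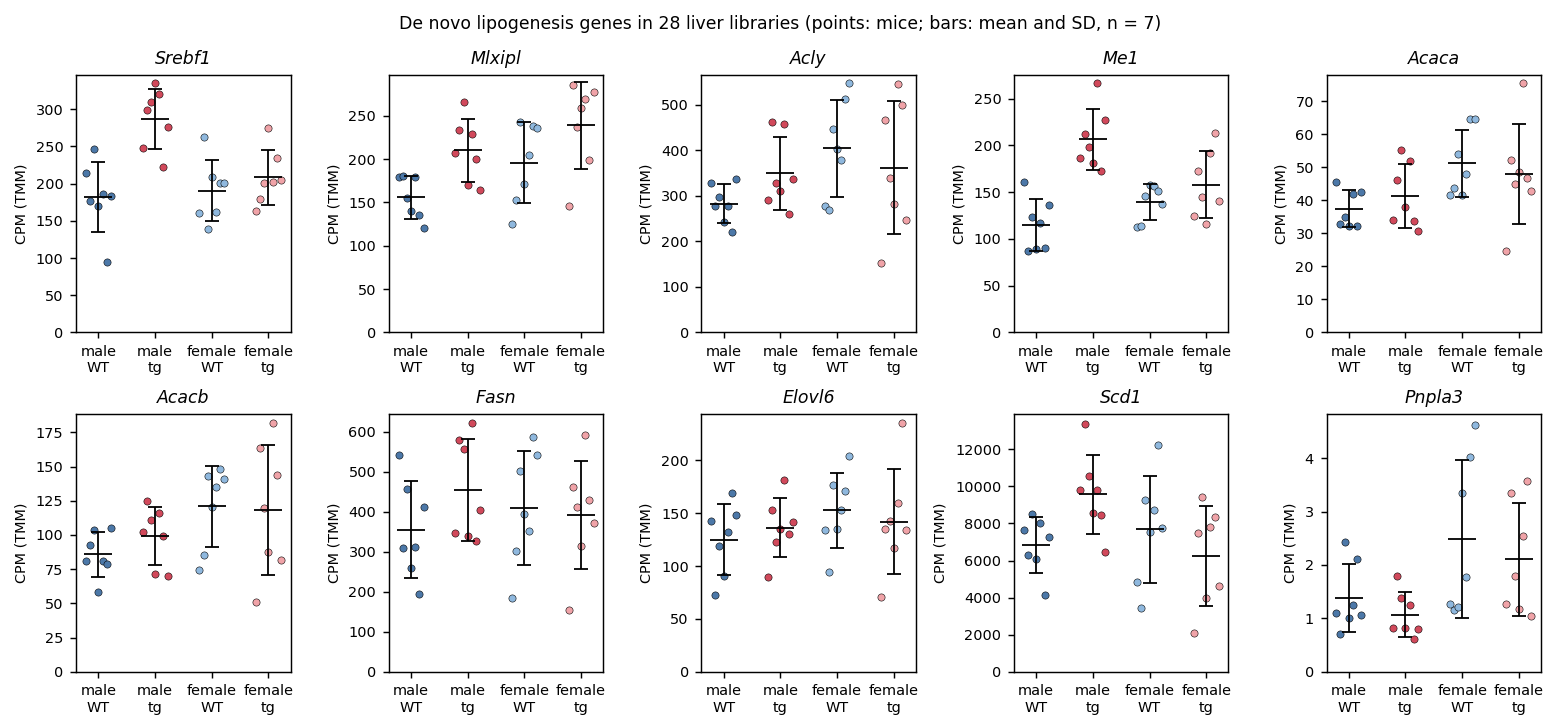
Level of each of the 10 genes in CPM (y axis, from 0) in male WT, male SIRT6-tg (tg), female WT and female SIRT6-tg livers (x axis), with 1 point per mouse and a bar for the mean and SD (n = 7). Me1 separated the male groups, with 87.1 to 160.8 CPM in WT and 172.3 to 266.9 CPM in SIRT6-tg livers, while every other gene overlapped between them.

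In males, Me1, Srebf1 and Mlxipl were higher in SIRT6-tg than in WT livers, and the other 7 genes did not pass the test. Thus 3 of 10 members were called, all of them higher, where 20.7% of all genes were called and 9.68% were called higher. The median log2 fold change of the 10 was 0.33, against 0.06 for all genes and 0.37 for the 8 hepatocyte markers, all 8 of which were above 0. Ranges of the male groups were apart, with SIRT6-tg higher, for 1 of the 10 (Me1) and for 2.60% of all genes.

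Among the regulators, Srebf1 lay between 94.3 and 246.7 CPM in male WT livers (median 183.3) and between 222.2 and 334.7 CPM in male SIRT6-tg livers (median 299.0). Of the 7 SIRT6-tg mice, 6 were above every WT mouse. The rise was 1.58-fold (log2 fold change 0.66 ± 0.15 SE, 95% interval 0.34 to 0.98, edgeR adjusted p = 0.00227). Mlxipl lay between 120.2 and 180.6 CPM (median 154.6) in male WT and between 164.3 and 266.5 CPM (median 207.5) in male SIRT6-tg livers, with 5 SIRT6-tg mice above every WT mouse. Its log2 fold change was 0.43 ± 0.15 (SE, edgeR adjusted p = 0.0404). This call did not hold in DESeq2 (adjusted p = 0.0531), with RLE scaling (0.0661) or when any of 13 single libraries was left out (highest adjusted p 0.146). These were male WT replicates 3 (adjusted p = 0.0792), 4, 6 and 7, male SIRT6-tg replicates 1, 2, 3, 5 and 6, female WT replicate 5 and female SIRT6-tg replicates 3, 6 and 7. Over the 9 other settings the adjusted p of Mlxipl ranged from 0.031 to 0.723.

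Among the enzymes, Me1 moved most. Its median was 117.3 CPM in male WT and 198.5 CPM in male SIRT6-tg livers, and the lowest SIRT6-tg mouse (172.3 CPM) stood above the highest WT mouse (160.8 CPM). The rise was 1.80-fold (log2 fold change 0.85 ± 0.14 SE, 95% interval 0.55 to 1.14, edgeR adjusted p = 6.52e-05). Me1 passed the test under all 9 other settings and without each library, with adjusted p of at most 0.00996.

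The main enzymes of chain synthesis had positive log2 fold changes in males that did not pass the test. Fasn lay between 194.9 and 543.4 CPM (median 311.4) in male WT and between 327.7 and 621.8 CPM (median 405.4) in male SIRT6-tg livers. All 7 SIRT6-tg mice were above the WT median and 3 above every WT mouse, and the log2 fold change was 0.35 (95% interval -0.17 to 0.88, edgeR adjusted p = 0.367). Scd1 ranged from 4114.7 to 8529.3 CPM (median 7284.1) in male WT and from 6457.4 to 13353.3 CPM (median 9795.7) in male SIRT6-tg livers. Its 5 highest SIRT6-tg mice were above every WT mouse, yet the interval of its log2 fold change, -0.05 to 1.01 around 0.48, includes 0 (edgeR adjusted p = 0.203). Acly, with 220.2 to 337.7 CPM in WT and 260.7 to 461.6 CPM in SIRT6-tg males, gave 0.30 (interval -0.12 to 0.73). For the carboxylases the values were 0.14 (interval -0.20 to 0.49) for Acaca and 0.21 (interval -0.22 to 0.64) for Acacb, and for Elovl6 0.13 (interval -0.29 to 0.54). Pnpla3 had the only negative value, -0.36, with the widest interval (-1.11 to 0.40). The intervals include both no change and, for each of these genes but Pnpla3, a rise of 1.40-fold or more.

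**Figure D2:**
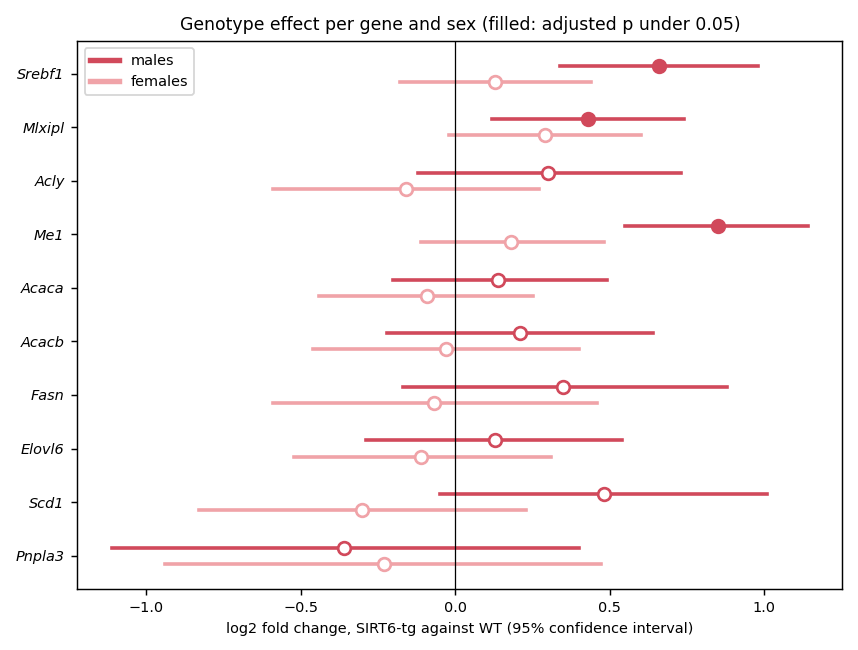
Log2 fold change of SIRT6-tg against WT livers (x axis) for each gene (y axis) in males and females, with the 95% confidence interval as a line. Filled points have an adjusted p under 0.05, and only Me1 (0.85), Srebf1 (0.66) and Mlxipl (0.43) in males are filled.

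The directions in males depended on how libraries were scaled to each other. TMM factors differ between the male groups, and the median of all genes moved from 0.06 with TMM to 0.01 (RLE), -0.02 (upper quartile), -0.22 (library size alone) and -0.29 (scaling on the 8 hepatocyte markers). With library size alone and with hepatocyte markers Me1 was the only member called, at 0.57 and 0.51, and Srebf1 gave 0.38 and 0.33 (edgeR adjusted p = 0.096 and 0.134). Mlxipl, Fasn and Scd1 stayed above 0 under both, whereas Acaca, Acacb and Elovl6 turned below 0 under both, and Acly under hepatocyte markers. The median of the 10 members was 0.06 with library size alone, with 6 above 0, and 0.0 with hepatocyte markers, with 5 above 0. Another scaling shifts nearly all genes alike, so positions relative to the median of all genes hardly move by construction. They describe 1 result rather than 5. Me1 stood 0.79 to 0.80 above it, Srebf1 0.60 to 0.62, Scd1 0.42 to 0.44, Mlxipl 0.37 to 0.39 and Fasn 0.30 to 0.33 over the 5 scalings, and 9 of 10 members were above it in each of them. Without male WT replicate 3, under TMM, 2 members were called, Me1 with 0.85 and Srebf1 with 0.73. Mlxipl then gave 0.41, Scd1 0.52, Fasn 0.41, Acly 0.30, Acacb 0.24, Acaca 0.11 and Elovl6 0.10, while Pnpla3 moved from -0.36 to -0.17.

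**Figure D3:**
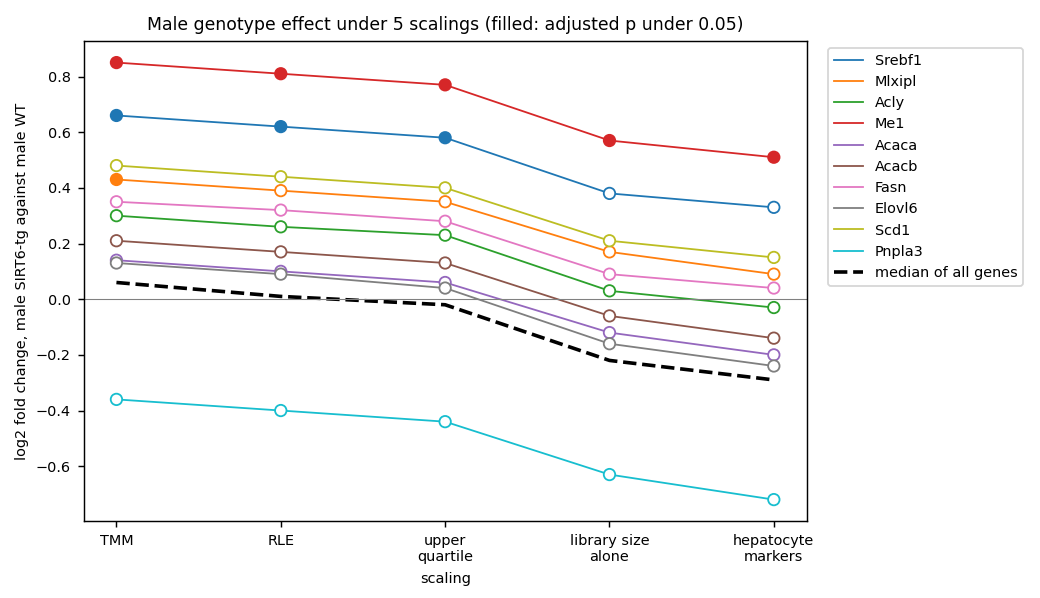
Log2 fold change of male SIRT6-tg against male WT livers (y axis) for the 10 genes under 5 ways of scaling the libraries (x axis), with the median of all genes as a dashed line and filled points for an adjusted p under 0.05. All lines fall in parallel with the dashed line, from 0.06 to -0.29, and Me1 is filled under all 5.

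In females, none of the 10 genes was called, where 0.0278% of all genes, or 6 genes, were called. None passed an unadjusted p of 0.05 either, as 5.62% of all genes did, and DESeq2 called none. Srebf1 lay between 139.2 and 262.3 CPM (median 200.5) in female WT and between 163.3 and 275.3 CPM (median 202.2) in female SIRT6-tg livers, so the groups overlapped almost wholly, with a log2 fold change of 0.13 (95% interval -0.18 to 0.44). Me1 had medians of 145.7 and 145.2 CPM, with a log2 fold change of 0.18 (interval -0.11 to 0.48). The furthest values on either side were Mlxipl with 0.29 (interval -0.02 to 0.60, medians 205.3 and 259.1 CPM) and Scd1 with -0.30 (interval -0.83 to 0.23, medians 7739.1 and 7503.6 CPM). For 7 of the 10 the value was under 0.2 in either direction. Female SIRT6-tg replicate 1 was the lowest of its group for 8 of the 10 genes, with 154.6 CPM of Fasn and 2098.3 CPM of Scd1. Without it Fasn, Acaca, Acacb and Elovl6 turned from negative to positive values of at most 0.10, Scd1 moved to -0.15, and still none was called.

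Whether the SIRT6-tg effect differs between the sexes was tested as its own contrast. None of the 10 members passed, against 5.05% of all genes called. An unadjusted p under 0.05, which 18.8% of all genes had, was found for 3 members, namely Me1, with an effect 0.66 larger in males on the log2 scale (95% interval 0.25 to 1.08, edgeR adjusted p = 0.0531), Scd1, with 0.78 (interval 0.03 to 1.53, adjusted p = 0.248), and Srebf1, with 0.53 (interval 0.09 to 0.98, adjusted p = 0.171). Me1 passed in DESeq2 (adjusted p = 0.0363), with the filter of filterByExpr (0.0366) and without male WT replicate 1, male SIRT6-tg replicate 6, female WT replicate 1 or 2, or female SIRT6-tg replicate 5 or 6 (lowest adjusted p 0.0162), and over all 8 other settings its adjusted p ranged from 0.0363 to 0.415. In all, 9 of the 10 values were above 0, and those of Acaca, Acacb, Elovl6 and Mlxipl turned below 0 with library size alone and with hepatocyte markers, where the median of all genes was -0.25 and -0.41 against 0.03 with TMM. As scaling shifts nearly all genes alike, 9 of the 10 stood above that median under each of the 5 scalings.

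Between the sexes without the transgene, all 10 members had lower means in male than in female WT livers, as 50.4% of all genes did, and none was called, against 12.4% of all genes. The values ran from -0.07 (Srebf1) to -0.85 (Pnpla3, 95% interval -1.57 to -0.13, edgeR adjusted p = 0.117). Acaca, with -0.45 (adjusted p = 0.0817), and Acly, with -0.52 (adjusted p = 0.107), passed when the WT mice were fitted without the SIRT6-tg mice (adjusted p = 0.0317 and 0.0399), and Acaca without female SIRT6-tg replicate 1 (0.0459). With Mlxipl (-0.33), Acacb (-0.50) and Pnpla3, 5 of the 10 had an unadjusted p under 0.05, as had 25.1% of all genes. All 10 lay below the median of all genes under each of the 5 scalings, which shift nearly all genes alike. The distance was between 0.07 and 0.10 for Srebf1 and between 0.83 and 0.86 for Pnpla3. The sign against 0 moved with that median, which was 0.19 with library size alone, where Srebf1 and Scd1 turned above 0, and 0.33 with hepatocyte markers, where Fasn, Elovl6, Me1, Srebf1 and Scd1 did. Without male WT replicate 3 none was called, and the value of Pnpla3 was -1.03 (edgeR adjusted p = 0.0675). Male WT Acly lay between 220.2 and 337.7 CPM and female WT Acly between 269.5 and 547.3 CPM, and all 7 males were below the female median. In this comparison the 8 hepatocyte markers had a median of -0.3, with 3 called lower, against -0.31 for the 10 members. All 7 T cell markers were called higher, as were 2 of 8 macrophage and dendritic cell and 2 of 5 stellate cell markers. Among adipocyte and erythroid markers 2 of 6 and 1 of 3 were called higher, and no other marker was called. The part of cell composition in the lower member values was not tested.

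Among SIRT6-tg mice, Srebf1 was higher in males than in females, by 0.46 on the log2 scale (SE 0.15, edgeR adjusted p = 0.0302), and was the 1 member called, where 23.1% of all genes were. Of the males, 5 were above every female. The call was lost without male SIRT6-tg replicate 4 or 5 or female SIRT6-tg replicate 1, 2 or 5 (highest adjusted p 0.0635). Over the 9 other settings its adjusted p ranged from 0.0131 to 0.131. Me1 (0.39, adjusted p = 0.0504) and Pnpla3 (-0.97, adjusted p = 0.0519) were just outside the threshold, and passed it without 1 of 10 and 1 of 12 single libraries, respectively (lowest adjusted p 0.015 and 0.0312). Pnpla3 lay between 0.619 and 1.79 CPM in these males and between 1.04 and 3.57 CPM in the females, and passed under 7 of the 9 other settings (adjusted p from 0.0248 in DESeq2 to 0.0845 with no filter). With upper-quartile, library-size and hepatocyte-marker scaling Srebf1 was not called and Pnpla3 was the 1 member called. Scd1 gave 0.61 (adjusted p = 0.0876).

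Pooled over the groups, most of the genes varied together from mouse to mouse and Srebf1 did so least. Many genes outside the members varied with Fasn, Srebf1 or Mlxipl as closely as some members did, and the pattern differed from group to group. Likeness was measured as Pearson's r of the deviations of log2 CPM from the group means over the 28 libraries. The median over the 45 pairs was 0.60. Fasn and Acly reached 0.87, as did Acly and Acacb, and Fasn and Acaca 0.83. Fasn, Srebf1 and Mlxipl were also compared with 11263 genes outside the members. None was more like Fasn than Acly or Acaca, 2 were more so than Acacb and 3 than Scd1. The numbers were 21 for Me1, 32 for Mlxipl, 1367 for Elovl6, 1887 for Pnpla3 and 2720 for Srebf1. For likeness to Mlxipl they ran from 1158 (Fasn) to 5123 (Srebf1), and for Srebf1 from 807 (Fasn) to 6499 (Elovl6). An r near 0.60 was thus not particular to pairs of members. Srebf1 had a median r of 0.18 with the other 9 and at most 0.44, with Fasn, whereas the medians of the others were 0.51 to 0.75. Within single groups of 7 mice, the median over the pairs was 0.38 in male WT, 0.62 in male SIRT6-tg, 0.72 in female WT and 0.72 in female SIRT6-tg livers. The median of Srebf1 with the other 9 was 0.45 and 0.50 in male WT and SIRT6-tg livers, and -0.22 and 0.28 in female WT and SIRT6-tg livers. In male WT livers Srebf1 reached 0.95 with Scd1 and 0.87 with Fasn, against -0.45 and 0.04 in female WT livers. Male WT replicate 6 was the lowest of its group for Srebf1, Scd1 and Fasn. It was Pnpla3, Elovl6 and Mlxipl that had the lowest medians in male WT livers (-0.10, 0.10 and 0.13). These differences between groups were not tested. The spread within groups was smallest for Me1 (SD 0.28 on the log2 scale), Srebf1 and Mlxipl (0.31 each), the 3 genes that passed the test in males, and larger for Fasn (0.53), Scd1 (0.55) and Pnpla3 (0.68). All points share depth and scaling within a library, so these values are descriptions.

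**Figure D4:**
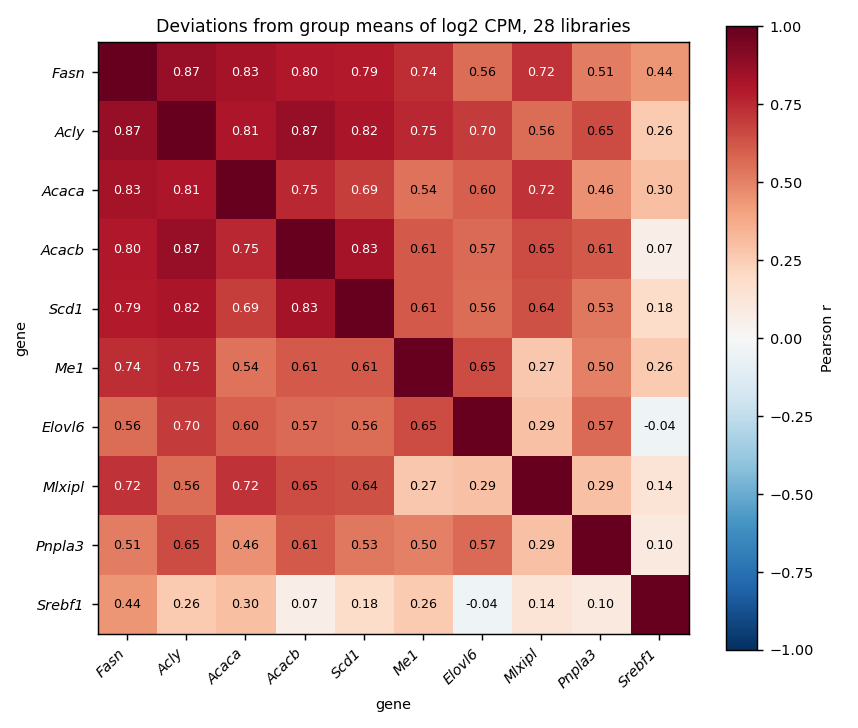
Pearson's r between each pair of genes (both axes) for deviations of log2 CPM from group means over 28 libraries, coloured from -1 (blue) to 1 (red). A block of high values joins Fasn, Acly, Acaca, Acacb and Scd1, and the row of Srebf1 stays between -0.04 and 0.44.

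Of 11263 genes outside the 10 with a mean of at least 50 counts, those most like Fasn were Pklr (r = 0.83), the liver pyruvate kinase of glycolysis, Slc25a44 (0.81), Fbrsl1 (0.80), Ptprs (0.79) and Pstpip2 (0.78). Those most like Srebf1 were Sardh (0.85), sarcosine dehydrogenase, Dgat2 (0.79), which adds the last fatty acid of triglycerides, Tmem63a (0.79), Slc38a3 (0.75), an amino acid transporter, and Anapc15 (0.74). Those most like Mlxipl were Hinfp (0.92), Zfc3h1 (0.91), N4bp2 (0.89), Zscan29 (0.89) and Kmt2b (0.89). Without the 2 libraries farthest from the median of the member, r was 0.82 for Pklr with Fasn, 0.73 for Sardh and 0.65 for Dgat2 with Srebf1, and 0.89 for Hinfp with Mlxipl.

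A further 48 genes around the pathway, in 5 lists, were all expressed. In males, 17 of them were higher in SIRT6-tg livers and 1 was lower, against 9.68% of all genes higher and 11.0% lower. The counts of higher genes were 4 of 12 in transcriptional control, 4 of 11 in carbon and NADPH supply, 2 of 10 in elongation and desaturation, 5 of 9 in glycerolipid assembly and 2 of 6 in the regulation of acetyl-CoA carboxylase. The median log2 fold change of the 48 was 0.24. The lowest adjusted p among higher genes belonged to Agpat2, which makes phosphatidic acid on the way to triglycerides. It averaged 89.9 ± 12.5 CPM in male WT and 144.7 ± 8.55 CPM in male SIRT6-tg livers (SD, n = 7), a log2 fold change of 0.69 (edgeR adjusted p = 4.78e-05). Idh1, a cytosolic source of NADPH, gave 0.45 (adjusted p = 0.000193) and Tecr, which completes each round of chain elongation, 0.42 (adjusted p = 0.00022). Both calls were lost with library size alone (0.17 and 0.14, edgeR adjusted p = 0.109 and 0.282) and with hepatocyte markers (0.11 and 0.06, adjusted p = 0.475 and 0.695). That of Agpat2 was lost with hepatocyte markers (0.33, adjusted p = 0.0529).

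The lower gene was Scd2, a stearoyl-CoA desaturase like Scd1. It fell from 10.1 ± 2.79 CPM to 4.48 ± 0.503 CPM (SD, n = 7), a log2 fold change of -1.17 (edgeR adjusted p = 7.15e-07). T cell, macrophage and stellate cell markers were lower in the same livers, and their part in this result was not tested. With library size alone 2 of the 48 were called higher and 5 lower, against 0.973% and 18.9% of all genes, and with hepatocyte markers none higher and 8 lower, against 0.575% and 23.6%. The median of the 48 was -0.02 and -0.09 there. As scaling shifts nearly all genes alike, it stood 0.19 to 0.20 above the median of all genes under each of the 5 scalings. Of the 48, 37 to 39 were above that median. Without male WT replicate 3, 12 were called higher and 1 lower.

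**Figure D5:**
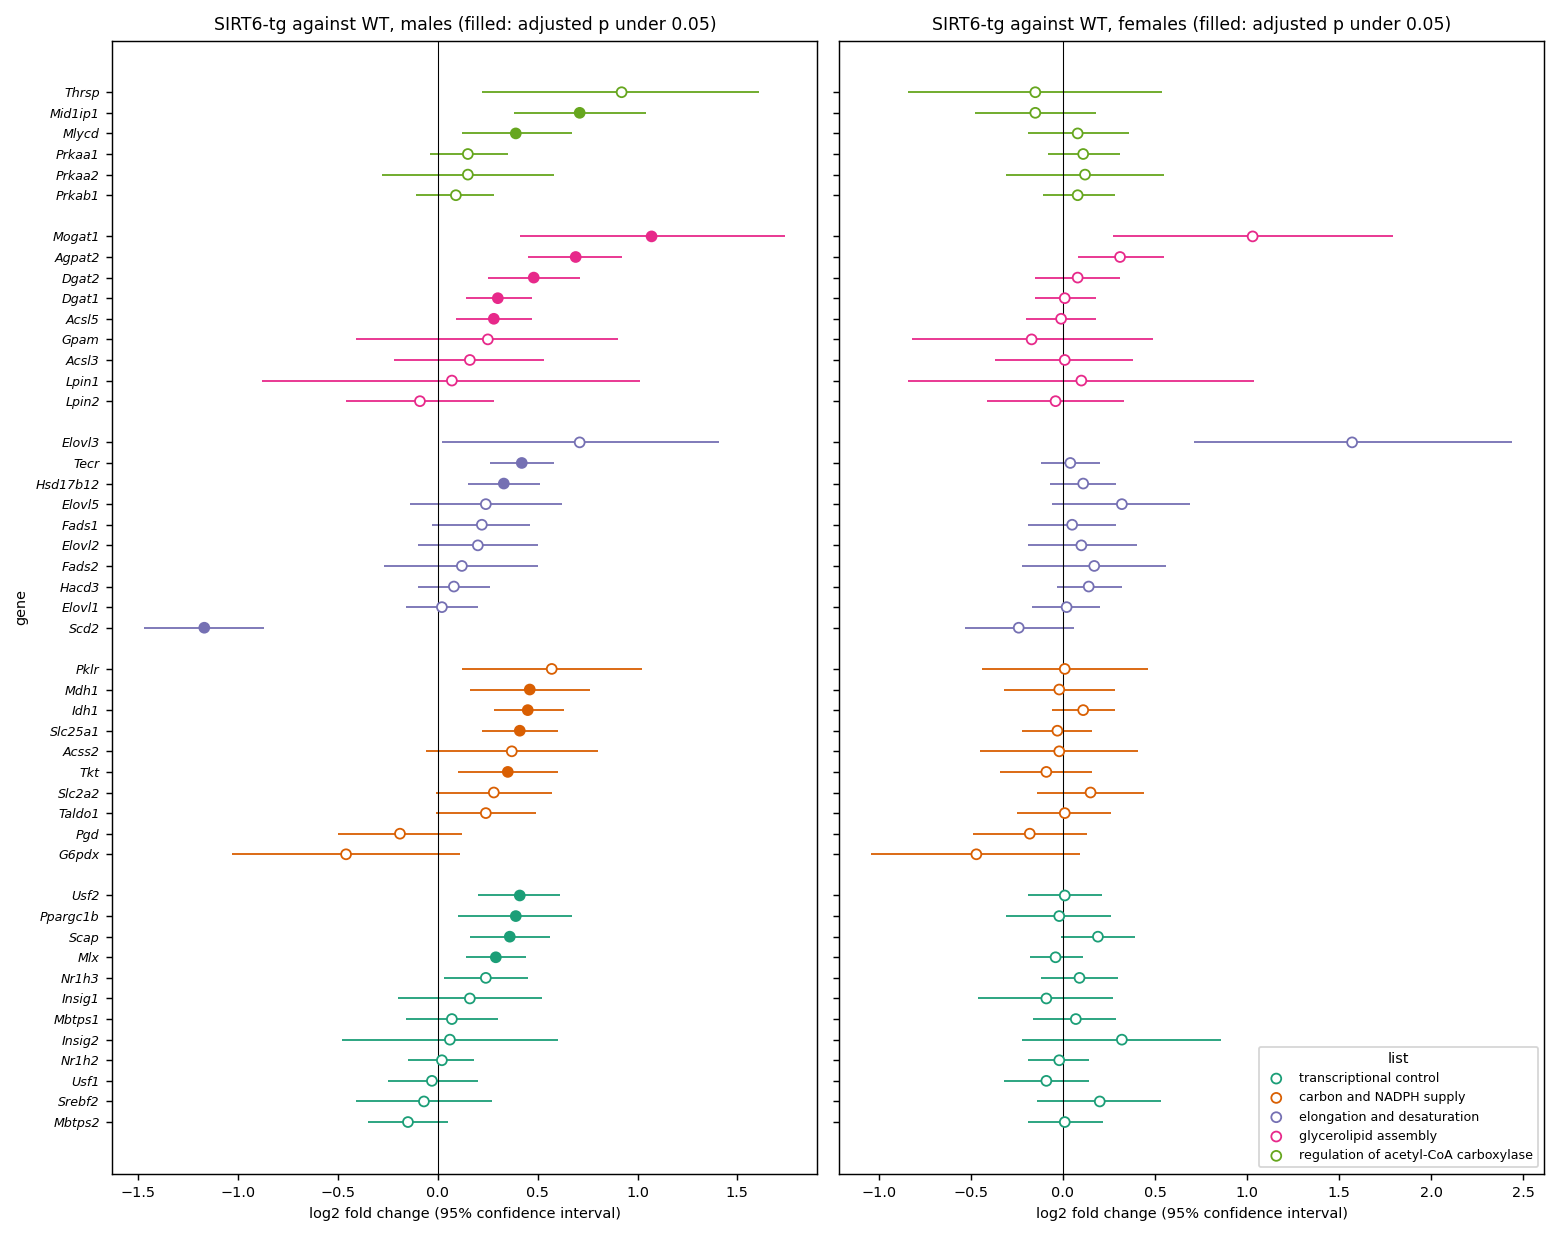
Log2 fold change of SIRT6-tg against WT livers (x axis) with 95% confidence intervals for 47 of the 48 genes of 5 lists (y axis) in males (left) and females (right), filled where the adjusted p is under 0.05. In males 17 points right of 0 and Scd2 left of it (-1.17) are filled, and in females none is.

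In females none of the 48 was called, 3 had an unadjusted p under 0.05, as did 5.62% of all genes, and DESeq2 called 1. That was Elovl3, an elongase of very long chains, with 1.13 ± 0.659 CPM in WT and 3.38 ± 1.92 CPM in SIRT6-tg females and a log2 fold change of 1.57 (edgeR adjusted p = 0.284, DESeq2 adjusted p = 0.0186). The others were Mogat1 (1.03, edgeR adjusted p = 0.577) and Agpat2 (0.31, adjusted p = 0.595). Mogat1 was low, with 0.406 ± 0.0954 CPM in WT and 0.845 ± 0.294 CPM in SIRT6-tg females. In the remaining lists the lowest p belonged to Scap (0.19) and Insig2 (0.32), to G6pdx (-0.47) and Idh1 (0.11), and to Prkaa1 (0.11) and Mid1ip1 (-0.15), each with an edgeR adjusted p of 0.923 or more. The SIRT6-tg effect differed between the sexes for 4 of the 48, against 5.05% of all genes. It was larger in males for Mid1ip1, an activator of acetyl-CoA carboxylase (0.86, edgeR adjusted p = 0.0233), Tecr (0.38, adjusted p = 0.044) and Slc25a1, the mitochondrial citrate carrier (0.44, adjusted p = 0.0454), and lower in males for Scd2 (-0.93, adjusted p = 0.00588). The call of Mid1ip1 was lost with library size alone (0.55, adjusted p = 0.11), with hepatocyte markers (0.41, adjusted p = 0.214) and without male WT replicate 4 (adjusted p = 0.0506). Those of Tecr and Slc25a1 were lost in RLE scaling (adjusted p = 0.0896 and 0.0796) and when any of 23 and 22 of the 28 libraries, respectively, was left out (highest adjusted p 0.108 and 0.103). Both were also lost with upper-quartile scaling (0.113 and 0.107), library size alone (0.727 and 0.512) and no filter (0.114 and 0.0902). With hepatocyte markers both were lost too, and Tecr gave -0.07 and Slc25a1 0.0. Of the 2 lists without a call, the lowest p belonged to Mlx (0.33, adjusted p = 0.0589) and Usf2 (0.39, adjusted p = 0.102), and to Dgat1 (0.29, adjusted p = 0.151) and Dgat2 (0.40, adjusted p = 0.165). Mlx passed in DESeq2 (adjusted p = 0.0222), with filterByExpr (0.0214) and without female WT replicate 4 (0.0489). Over all 8 other settings its adjusted p ranged from 0.0214 to 0.918.

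Between the sexes, 6 of the 48 were called in WT livers, 2 higher and 4 lower in males, against 6.65% and 5.71% of all genes. Elovl3 was 77.1-fold higher in males (87.3 ± 47.8 against 1.13 ± 0.659 CPM, SD, n = 7, edgeR adjusted p = 8.64e-11). Mogat1 was 2.14-fold higher, at low levels (0.86 ± 0.47 against 0.406 ± 0.0954 CPM, edgeR adjusted p = 0.0429). Elovl2 (-0.72) and Fads1 (-0.45), which act on polyunsaturated chains, and Acsl5 (-0.32) were among the 4 lower. The call of Mogat1 was lost with no filter (adjusted p = 0.0511) and without male WT replicate 1, 3 (0.0998) or 7 or female WT replicate 1, 3, 5, 6 or 7 (highest adjusted p 0.101). Those of Fads1 and Acsl5 were lost with library size alone (adjusted p = 0.148 and 0.341) and with hepatocyte markers (0.459 and 0.942), and that of Acsl5 also with the WT mice fitted alone (0.0612) and without male WT replicate 4 or female WT replicate 5 or 6 (highest adjusted p 0.0726). In transcriptional control and carbon supply none passed. Usf1 (0.28) and Usf2 (-0.12) had the lowest p of the former list, and Taldo1 (0.36, adjusted p = 0.0526) was among the lowest of the latter. Taldo1 passed under 5 of the 9 other settings (adjusted p from 0.000484 to 0.0879) and when 1 of 15 single libraries was left out. Without male WT replicate 3, 1 of the 48 was higher and 3 were lower. The directions of these calls moved with scaling. With library size alone 11 were higher and 1 lower in WT males, against 16.9% and 2.57% of all genes. With hepatocyte markers 18 were higher and 1 lower, against 28.3% and 1.69%. In SIRT6-tg livers 24 of the 48 were called, 19 higher and 5 lower in males, against 12.9% and 10.2% of all genes. These counts also moved with scaling, to 14 higher and 6 lower with RLE and 12 and 7 with upper-quartile scaling. With library size alone they were 10 and 7, against 8.78% and 13.7% of all genes. With hepatocyte markers they were 9 and 7, against 6.33% and 13.3%. Among those with the lowest adjusted p were Elovl3 (5.41) and Slc25a1 (0.67) on the higher side, and Elovl2 (-0.63), Scd2 (-0.63) and Prkab1 (-0.31) on the lower, each with an edgeR adjusted p of at most 0.0179.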

How the data were processed

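RNA of 28 livers was sequenced from NEBNext Ultra libraries. The authors aligned single-end reads to mm10 (the build of GRCm38) with STAR 2.5.0a, counted them on Gencode genes with HTSeq, and deposited raw read counts per gene, not normalized, with 1 column per library. The strand setting is not given in the sources used here, so overlapping and antisense genes are uncertain. Samples were grouped by the sex and genotype in their labels, and mice are taken as separate samples on these labels. No pair of libraries agreed within sampling noise.

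Symbols and exon lengths came from Gencode vM21 by gene identifier. The 21583 genes whose mean count after DESeq2 size factors was at least 0.5 were kept. Scaling was by TMM. Tests used edgeR 4.0.16 in R 4.3.3 (glmQLFit, robust, and glmQLFTest, two-sided, all 28 libraries in 1 fit of 4 group means), with p-values adjusted by Benjamini-Hochberg over all genes kept and called under 0.05. Sex comparisons are given as males minus females. For likeness a prior count of 2 was added. Between 18758863 and 35393069 counts per library limit precision, and intervals reflect the spread between mice. The test was checked on simulated counts in which few genes changed, equally up and down. Such a check does not bear on how the calls depend on scaling.

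The 10 members, the lists and the alternatives were chosen with earlier results of these data known. Named were all members, Sirt6, in each comparison up to 3 called list genes per direction, taken by adjusted p, the 2 with the lowest p of a list without a call, and the 5 genes most like Fasn, Srebf1 and Mlxipl. The values of 1 listed gene, counted among the 48, are not reported here. Alternatives were RLE, upper-quartile, library-size and hepatocyte-marker scaling, filterByExpr, no filter beyond a count above 0, DESeq2 1.42.0, separate fits of each sex or genotype, a replicate block, and each library left out.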

Additional observations from a re-analysis of the deposited data

Results flagged for a closer look

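A difference of the SIRT6-tg effect between males and females that passed the test of the difference itself (edgeR, adjusted p under 0.05) was found for 4 genes around the pathway and for none of the 10 members. The effect in males minus that in females was 0.44 on the log2 scale for Slc25a1, 0.86 for Mid1ip1, -0.93 for Scd2 and 0.38 for Tecr. Sirt6 was raised more in the males, and sex and this level cannot be told apart. In CPM, no mouse stood apart from its group by Dixon's test in any of the 40 combinations of a member and a group, where chance flags about 1 in 20. On the log2 scale Srebf1 of male WT replicate 6 did, with 6.56 against 7.408 for the next lowest and 7.947 for the highest mouse. That gap exceeds 0.568 of the range, the critical value of the test. With each library left out in turn, the log2 fold change of Srebf1 in males stayed between 0.55 and 0.73.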

How the results depend on the processing

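Me1 in males was called under every alternative, Srebf1 in males under all but library size alone and hepatocyte-marker scaling, and no member in females under any. In males, members called fell from 3 to 1 with library size alone and with hepatocyte markers, and genes of the 5 lists from 18 to 7 and 8. There, Acaca gave -0.12 and -0.20, Acacb -0.06 and -0.14, Elovl6 -0.16 and -0.24, and Acly -0.03 with hepatocyte markers. In females, Acacb gave 0.03 with hepatocyte markers. Of all genes 13 were then called, 42 in DESeq2 and 2 with the sexes fitted separately, and DESeq2 called 1 list gene. For the difference between the sexes, filterByExpr and DESeq2 each called 1 member, Me1. List genes called were 2 with RLE, upper-quartile scaling or no filter and 1 with library size alone. Hepatocyte markers called 5, none with a larger and 5 with a lower effect in males, against 0.116% and 16.4% of all genes. Library size alone and hepatocyte markers called 1863 and 3566 of all genes. They gave -0.04 and -0.19 for Acaca, -0.03 and -0.17 for Acacb, -0.04 and -0.22 for Elovl6, -0.13 and -0.28 for Mlxipl, and -0.01 and -0.16 for Dgat1, and hepatocyte markers -0.07 for Tecr, -0.13 for Mlx, -0.08 for Usf2 and -0.04 for Dgat2. For male against female WT, library size alone called 4212 of all genes (16.9% higher and 2.57% lower in males) and 12 list genes (11 higher and 1 lower). Hepatocyte markers called 6480 of all genes (28.3% higher and 1.69% lower) and 19 list genes (18 higher and 1 lower), and DESeq2 called 11 list genes. Library size alone and hepatocyte markers gave 0.01 and 0.14 for Scd1, 0.12 and 0.24 for Srebf1, and 0.07 and 0.23 for Usf2. Hepatocyte markers gave 0.08 for Fasn, 0.06 for Elovl6, 0.04 for Me1 and 0.01 for Acsl5. Fitting the WT mice alone called 2 members, against 0 under the other settings that kept all libraries. Among SIRT6-tg mice, 2 members were called with RLE, in DESeq2 and with these mice fitted alone, and 3 with filterByExpr. Beyond the shift of the median of all genes, the cause was not tested.

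Leaving out each library in turn, members called ranged from 2 to 3 in males, 0 to 1 for the difference and for the WT sexes, and 0 to 3 for the SIRT6-tg sexes. List genes called ranged from 1 to 5 for the difference and from 3 to 10 for the WT sexes, and all genes called in females from 3 to 16. Values changed sign in females for Fasn (-0.20 to 0.07), Acaca (-0.24 to 0.02), Acacb (-0.17 to 0.10) and Elovl6 (-0.28 to 0.01), in the difference for Pnpla3 (-0.34 to 0.06), between WT sexes for Srebf1 (-0.14 to 0.04), and between SIRT6-tg sexes for Acly (-0.18 to 0.08) and Elovl6 (-0.17 to 0.11). The median r between members ranged from 0.52 to 0.64.

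Equal replicate numbers share no known litter or batch, and same-numbered libraries had correlations of deviations from -0.69 to 0.58, with 2 to 4 of 7 pairs above 0.1 and 0 or 1 of 7 libraries most like its own number. Between male WT and male SIRT6-tg livers their median was 0.25, against -0.02 for other numbers. The paper states that both genotypes shared cages and that comparisons were among littermates. The labels give neither litter nor cage, so the fit does not hold them. With the replicate number as a block, 3, 0, 0, 0 and 1 members and 4209, 6, 989, 2474 and 4821 of all genes were called in the males, the females, the difference, the WT sexes and the SIRT6-tg sexes. The block ended no call of a member, but those of Slc25a1 for the difference (adjusted p = 0.0733, edgeR) and Mogat1 between WT sexes (0.0785). Depth limits Pnpla3 most, with 15 to 110 reads.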
